A study of Arabidopsis thaliana with 8 samples.

Results

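Shoot apices without the YABBY genes FIL and YAB3 were compared with wild-type apices of Arabidopsis thaliana, with every mutant array taken into 1 group. The groups were formed from the array titles: 4 mutant arrays stood against 4 wild-type arrays, which are all 8 arrays of the series. Wild type was the Ler strain. Of the mutant arrays, 2 carried RNA of fil-8 yab3-2 plants (the double mutant) and 2 carried RNA of fil-8 yab3-2 yab5-1 plants (the triple mutant), both in the Ler background, so that every mutant array shares fil-8 and yab3-2 and 2 of the 4 add yab5-1. All plants were grown in short days and their apices were taken 14 days after sowing. The alleles fil-8 and yab3-2 always occur together, and the effects of losing FIL and of losing YAB3 cannot be told apart. Whether replicate arrays come from plants raised separately is not in the labels. The p-values therefore rest on the spread between arrays, in which the pooled comparison also counts any difference between double and triple mutants. The rest of that spread may be technical in part or in whole.

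YABBY proteins are plant transcription factors that are made in lateral organs such as leaves, mostly on the abaxial (lower) side, and not in the meristem centre. They promote growth of the leaf blade and help to keep leaf programmes apart from those of the shoot tip. They act together with the co-repressors LEUNIG and SEUSS (SEU).

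Values are log2 signals of Affymetrix probe sets, and every difference below is in log2 units, mutants minus wild type. A log2 value of 4 or lower is called dim here, and where all arrays of a group are dim the fold is a lower bound, taken against the level of 4. A total of 13323 probe sets passed the filter on dim signals, which kept those above 4 on 4 or more arrays, and 7164 name 1 gene and 5905 are unnamed here. The wild-type arrays fell into pairs. Arrays 1 and 2 correlated with each other at a Pearson's r of 0.968 and arrays 3 and 4 at 0.967, but r between the pairs was 0.863 to 0.894. For 42 of 45 bacterial and phage spike-in controls the signals of arrays 1 and 2 exceeded all 6 others, with a median excess of 2.64, and the first pair also exceeded the second by a median of 7.74 in the 37 named plastid-encoded genes. Between mutant and wild-type arrays r was 0.913 to 0.953 for the second pair but only 0.860 to 0.921 for the first. Differences against each wild-type pair alone are therefore given beside the pooled ones for many of the genes. The mean excess of 3′ over 5′ signals in 6 control transcripts was 1.29 and 1.44 for the first wild-type pair, 1.41 for double mutant array 1 and 0.466 to 0.732 for the other 5 arrays. Few markers of the tissue have a named probe set. The mesophyll gene RCA lay at 14.38 to 15.04 in wild type and 14.21 to 14.50 in the mutants, the meristem gene CLV3 was dim on all wild-type arrays (at most 2.59) and at 2.19 to 4.32 in the mutants, the trichome gene TRY lay at 3.89 to 6.91 and 3.40 to 4.76, and the guard cell gene FMA (also FAMA) at 4.53 to 5.67 and 4.05 to 4.91. The root hair gene EXPA7 was at the lowest value of the table on all 8 arrays. Markers of epidermis, vasculature, flower and seed were not analysed here, and their part in the results was not tested.

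Across these apices 38 probe sets were higher and 22 were lower in the mutants at an adjusted p under 0.05 (limma, 2 groups), 60 in all or 0.450% of those tested (0.285% raised and 0.165% lowered). A single gene is named by 18 of the raised and 9 of the lowered probe sets, which is 0.381% of the 7090 named genes tested (0.254% raised and 0.127% lowered). Among named genes the largest falls were those of 2 lipid-transfer protein family genes and of YAB3, and the largest rises among genes that were not dim on every wild-type array were those of AT1G35612 and AT5G11930. BGLU45, a beta-glucosidase of monolignol glucosides, was dim on all wild-type arrays and at least 7.13-fold higher in the mutants. In bulk tissue, fewer cells of a type and less RNA per cell cannot be told apart, which holds for every value that follows.

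YAB3 (AT4G00180) itself checks the labels. Its signal was 8.46, 8.35, 9.48 and 8.91 on wild-type arrays 1 to 4, 3.35 and 4.99 on the double mutant arrays and 4.40 and 5.50 on the triple mutant arrays. Every mutant array lay below every wild-type array. YAB3 fell by 4.24 ± 0.46 (SE) in the mutants, with an adjusted p of 0.00733 (limma). The difference was -3.85 against wild-type arrays 1 and 2 and -4.64 against arrays 3 and 4, and of the 16 other settings the call was lost with no filter on dim probe sets and with the double mutant arrays alone. FIL has no named probe set and was not analysed here.

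YAB5 (AT2G26580), the further YABBY gene that is mutated in the triple mutant only, had signals of 7.52 and 7.17 on wild-type arrays 1 and 2 but 5.51 and 5.32 on arrays 3 and 4. In the mutants it lay at 6.03 and 5.60 (double) and at 5.28 and 5.02 (triple). The wild-type pairs thus differed more from each other than arrays 3 and 4 differed from the mutants. The pooled difference was -0.90, with a 95% interval of -2.08 to 0.29 and an adjusted p of 0.430, and it was -1.87 against arrays 1 and 2 and 0.07 against arrays 3 and 4. SEU (AT1G43850), the co-repressor partner, was almost constant in wild type at 8.93 to 8.98 and ranged from 7.99 to 9.26 in the mutants. Its groups overlapped, with a difference of -0.15 (95% interval -0.76 to 0.46).

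The gene with the largest difference among those named was AT4G22490, of the lipid-transfer protein family, whose members bind lipids and are mostly secreted. It was among the bright genes of wild-type apices, at 11.25, 11.31, 13.09 and 12.26. On 3 of the mutant arrays it lay at 2.16, close to the lowest value in the table, and on double mutant array 2 at 4.52. AT4G22490 fell by 9.23 ± 0.63 (adjusted p 0.00108). AT5G59330, of the same family, had wild-type signals of 9.31, 9.72, 11.06 and 10.42, and mutant signals of 3.01 and 3.65 (double) and 4.45 and 2.26 (triple). Its lowest wild-type array exceeded its highest mutant array by 4.86, and it fell by 6.78 ± 0.52 (adjusted p 0.00108). Most mutant values of both genes were dim, so the sizes of their falls depend on dim values and are no bound. Both genes kept their calls in all 16 other settings and without each array in turn. Against wild-type arrays 1 and 2 they differed by -8.53 and -6.17, and against arrays 3 and 4 by -9.93 and -7.40.

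AT5G05960, named here only by its locus, had the next largest fall after YAB3. Its wild-type signals were 9.27, 8.29, 7.06 and 8.49 and its mutant signals 4.03 to 5.26. The groups did not overlap although wild-type array 3 lay well below the other 3. It fell by 3.59 ± 0.49 (adjusted p 0.0240). AT1G55690, also known here only by its locus, lay at 8.06 to 8.58 in wild type and at 5.72, 6.83, 6.29 and 6.25 in the mutants, and fell by 2.01 ± 0.25 (adjusted p 0.0149). Double mutant array 2 was its highest mutant array.

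MYC3 (AT5G46760), a bHLH transcription factor of jasmonate signalling, had signals of 8.46, 7.85, 7.98 and 7.98 in wild type. The double mutant arrays gave 6.41 and 6.47 and the triple mutant arrays 7.01 and 6.73, so that all 4 mutant arrays were below all wild-type arrays. MYC3 fell by 1.41 ± 0.21 (adjusted p 0.0330), by similar amounts against both pairs (-1.50 and -1.32). The genes of the jasmonate list have no named probe set, so the pathway around MYC3 was not analysed here.

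The other lowered genes are named only by locus, and their falls were smaller. AT3G07720 lay at 7.94 to 8.56 in wild type and 6.71 to 6.99 in the mutants, a fall of 1.34 ± 0.18. AT1G18660 lay at 9.97 to 10.33 and 8.88 to 9.13, a fall of 1.08 ± 0.16. AT1G67800 lay at 7.37 to 7.77 and 5.69 to 6.56, a fall of 1.36 ± 0.22, with the double mutant 1.04 and the triple mutant 1.67 below wild type. In none of the 3 did a mutant array reach the lowest wild-type array, and AT1G67800 passed most narrowly, at an adjusted p of 0.0487.

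**Figure D1:**
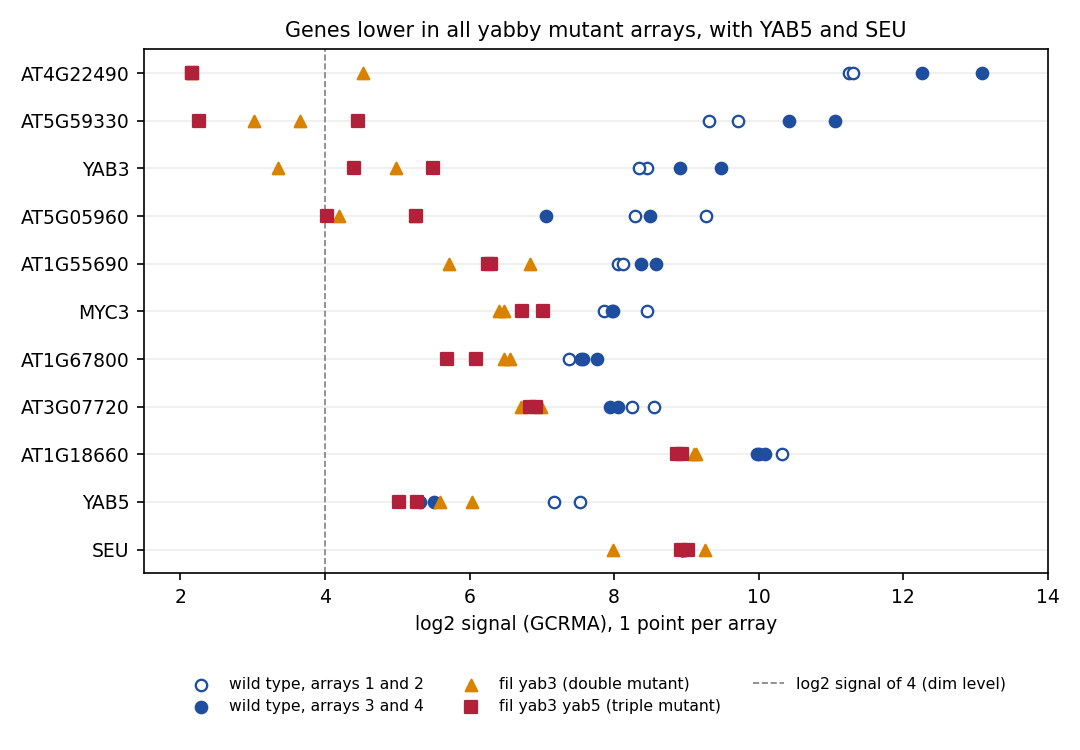
Log2 signal on each array (x axis) for the 9 named genes that fell in the pooled mutants, with YAB5 and SEU for comparison. Circles are wild-type arrays, triangles double mutant and squares triple mutant arrays; the dashed line marks a log2 value of 4. In the 9 genes no mutant point reaches a wild-type point, AT4G22490 lies at 2.16 on 3 mutant arrays, and YAB5 on wild-type arrays 3 and 4 lies among the mutants.

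Among raised genes, those of monolignol metabolism had the clearest named functions. Monolignols are the building blocks of lignin, stored as glucosides that beta-glucosidases can release. BGLU45 (AT1G61810), a beta-glucosidase acting on such glucosides, was dim on every wild-type array at 2.42, 2.36, 3.56 and 2.78. It lay at 6.37 and 6.53 in the double mutant and 7.22 and 7.21 in the triple mutant, which is at least 7.13-fold higher (log2 difference 4.05 ± 0.32, adjusted p 0.00109). CCR2 (AT1G80820), a cinnamoyl-CoA reductase that makes monolignol precursors, was also dim in wild type at 3.61, 2.44, 2.24 and 3.04. Its mutant arrays gave 4.99, 5.68, 7.05 and 5.91, at least 3.75-fold higher (3.07 ± 0.46, adjusted p 0.0361). Mutant and wild-type arrays did not overlap for either gene. Both passed the filter on dim signals only through the mutant arrays, as did SLY2, CHR40, AT1G17830 and AT3G19200 below. The filter thus kept these genes because they were high in the mutants. With no filter on dim probe sets 7 of the 27 named genes passed. BGLU45 was among them, and CCR2, SLY2, CHR40, AT1G17830 and AT3G19200 were not. The differences against wild-type arrays 3 and 4 were 3.67 for BGLU45 and 3.26 for CCR2. BGLU46, a close relative of BGLU45, was higher by 1.08 ± 0.44 and did not pass (adjusted p 0.283).

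SLY2 (AT5G48170, also SNEEZY) encodes an F-box protein of gibberellin signalling, the step that marks DELLA repressors for breakdown. Its wild-type signals were almost constant at a dim level, 3.80, 3.80, 3.82 and 3.82. In the mutants it lay at 7.62 and 5.90 (double) and 7.29 and 6.69 (triple). It was at least 7.33-fold higher, with a log2 difference of 3.06 ± 0.34 (adjusted p 0.00733). With a wild-type SD of 0.011, the spread that enters this test comes almost wholly from the mutant arrays. The other gibberellin genes did not pass: the receptor genes GID1B and GID1A differed by 1.2 and 0.98, GID1C by -0.55, and SLY1, the main F-box gene of the pathway, by 0.68.

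CHR40 (AT3G24340), listed as a chromatin remodeling gene, was dim in wild type at 2.93, 3.53, 3.25 and 3.39 and lay at 5.17, 4.79, 5.27 and 5.55 in the mutants. This made it at least 2.29-fold higher (1.92 ± 0.21, adjusted p 0.00733). The highest wild-type array of CHR40 lay 1.26 below its lowest mutant array. ARPN (AT2G02850), a plantacyanin and thus a small copper protein of the cell surface, lay at 5.94, 6.90, 6.88 and 7.07 in wild type and at 9.01, 8.77, 9.68 and 10.44 in the mutants, and rose by 2.78 ± 0.40 (adjusted p 0.0330). Its wild-type array 1 stood apart, and the highest wild-type array was 1.70 below the lowest mutant array. The gene 2A6 (AT1G03410) resembles 2-oxoglutarate-dependent dioxygenases, and its signals were 6.62, 6.62, 5.47 and 5.84 in wild type. In the mutants they lay between 9.46 and 9.93, a rise of 3.56 ± 0.29 (adjusted p 0.00109). The rise of 2A6 was 3.08 against wild-type arrays 1 and 2 and 4.04 against arrays 3 and 4.

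AT1G35612, given as a pseudogene in the gene table, had the largest rise. Wild-type signals were 3.63, 4.05, 3.64 and 3.28 and mutant signals 8.72, 7.48, 8.97 and 9.20. It rose by 4.94 ± 0.37 (adjusted p 0.00108), and its lowest mutant array exceeded its highest wild-type array by 3.43. AT1G62290, an aspartyl protease gene, lay at 5.26, 5.54, 5.57 and 5.42 in wild type, at 8.43 and 8.47 in the double mutant and at 9.85 and 9.30 in the triple mutant. Its arrays fell into 3 levels by genotype, and the pooled rise was 3.57 ± 0.32 (adjusted p 0.00230).

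The other raised genes bear only locus names. AT5G11930 went from 4.47, 3.71, 4.23 and 5.18 to 8.06, 7.60, 8.52 and 9.50, a rise of 4.03 ± 0.44. AT3G24450 went from 5.43, 5.05, 6.73 and 5.87 to 8.92, 8.77, 10.10 and 9.67, a rise of 3.59 ± 0.42. AT1G17830 was dim in wild type (2.56 to 3.03) and lay at 5.28, 5.91, 6.45 and 7.19 in the mutants, at least 4.61-fold higher. In all 3 of these genes the double mutant arrays were the lower mutant arrays. AT3G19200 was dim in wild type (3.46 to 3.89) and lay at 5.96, 5.67, 6.52 and 7.73 in the mutants, at least 5.54-fold higher. AT5G57785, bright in all groups, rose by 1.86 ± 0.24 from 10.00 to 10.67 in wild type to 11.87 to 12.58 in the mutants. AT5G56220 rose by 1.82 ± 0.29, with its highest wild-type array at 7.61 and its lowest mutant array at 8.40. In AT5G56220 wild-type array 3 stood nearest to the mutants. AT3G48185 rose by 1.82 ± 0.30, with double mutant array 2 at 5.37 and the other mutant arrays at 6.17 to 6.82. AT1G09390 rose by 1.80 ± 0.22, from 6.03 to 6.89 in wild type to 8.14 to 8.47 in the mutants. The last 2 were AT2G35310, listed as REM23 (reproductive meristem), which rose by 1.53 ± 0.24, and AT3G60180, which rose by 1.12 ± 0.18. AT2G35310 lay at 4.99 to 5.27 in wild type and 6.29 to 7.27 in the mutants, and AT3G60180 at 6.33 to 6.53 and 7.13 to 7.76.

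The calls differed in how far they rested on single arrays. With the set of probe sets kept as it was, AT4G22490, AT5G59330, YAB3, AT1G35612, BGLU45, AT5G11930, AT1G62290, 2A6, AT1G17830, SLY2 and CHR40 passed without each array in turn. AT3G24450 was lost without wild-type array 1 or triple mutant array 2, and AT1G55690 and AT1G09390 without wild-type array 4 or either triple mutant array. AT5G57785 was lost without wild-type array 1, 2 or 4 or either triple mutant array. AT3G19200 passed without wild-type array 3, double mutant array 2 or triple mutant array 2, CCR2 without wild-type array 3 or double mutant array 1, and ARPN without wild-type array 3 or double mutant array 2. MYC3, AT5G05960, AT3G07720, AT1G18660 and AT5G56220 passed without wild-type array 3 and not without any of the other 7. AT3G60180, AT2G35310 and AT3G48185 passed without double mutant array 2 only, and AT1G67800 in none of these fits. The adjusted p of the lost calls reached 0.188 (AT3G60180 and AT3G48185). When the filter on dim signals was instead repeated without the array, more calls were lost: of the 11 genes above, YAB3 missed the threshold without triple mutant array 1 (adjusted p 0.0541), SLY2 and AT1G17830 without wild-type array 1 (0.0563 and 0.0539), and AT5G11930 without wild-type array 1 (0.0539) or triple mutant array 1 (0.0550). SLY2, AT1G17830, CHR40, BGLU45, CCR2 and AT3G19200 failed that filter with any 1 of the 4 mutant arrays left out, so those 4 fits did not test them.

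**Figure D2:**
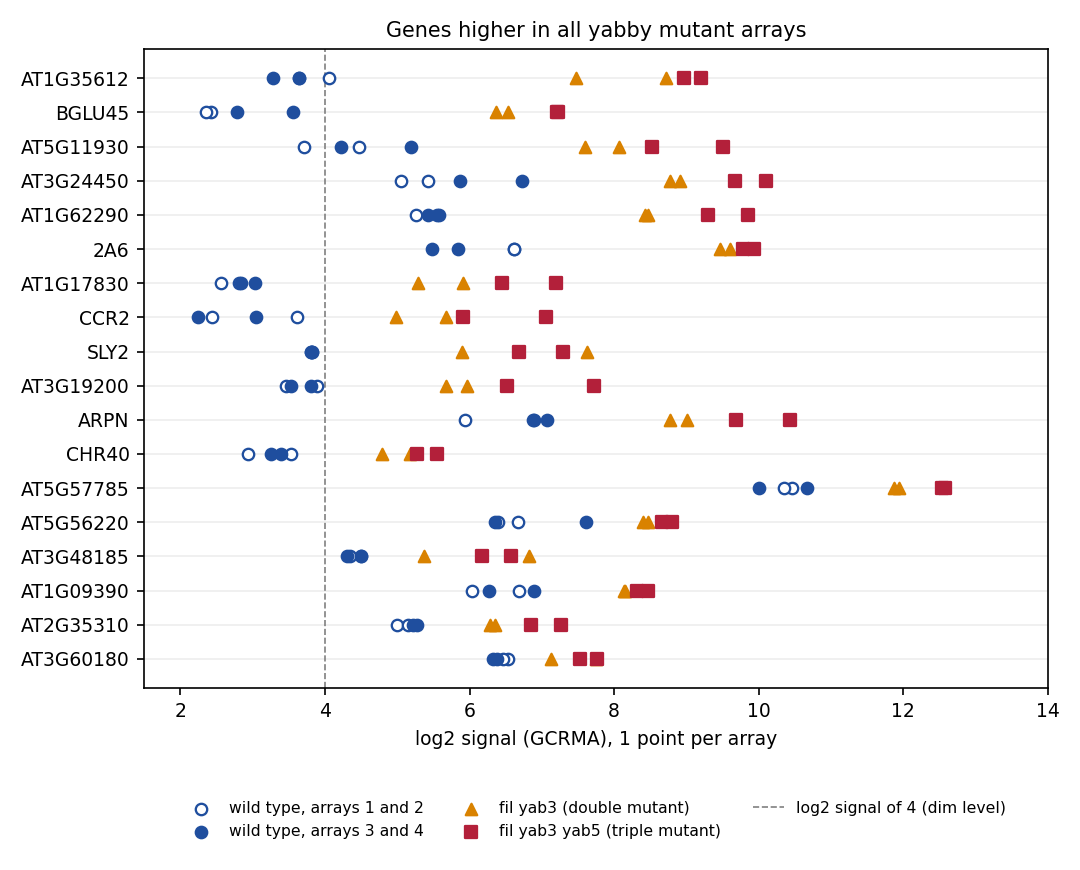
Log2 signal on each array (x axis) for the 18 named genes that rose in the pooled mutants, from the largest rise at the top. Circles are wild-type arrays, triangles double mutant and squares triple mutant arrays; the dashed line marks a log2 value of 4. All mutant points lie to the right of all wild-type points, and in 6 of the genes every wild-type array is at or below 4.

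Called falls had a median of -3.02 with sizes from 1.08 to 9.68, and called rises had a median of 2.51 with sizes from 1.12 to 4.94. Over all tested probe sets the median difference was close to 0 (-0.005), and the 5th and 95th percentiles were -0.86 and 0.94. Differences above 3 in size were found for 15 of the raised and 11 of the lowered probe sets. In 11 of the 38 raised and 6 of the 22 lowered probe sets 1 group was dim on all its arrays, so that their differences depend on dim values and are no bound. With these at their bound the medians were 2.35 and -2.39, and 8 raised and 10 lowered probe sets stayed above 3. Every one of the 60 called probe sets had mutant arrays that did not overlap with wild type. Of all tested probe sets 1339 (10.1%) had groups that did not overlap, 715 with the mutants higher (5.37%) and 624 with the mutants lower (4.68%).

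Unnamed probe sets held some of the largest differences. The largest fall of all was that of 253660_at, which lay at 10.60 to 13.43 in wild type and at 2.76 or lower in the mutants, at least 257-fold lower than wild type. Probe set 266383_at was at least 37.1-fold lower. Among rises, 246025_at was at least 7.26-fold and 256589_at at least 8.37-fold higher. No gene name is given here to 20 of the 38 raised and 12 of the 22 lowered probe sets.

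The wild-type pairs were then used 1 at a time as the control, and the mutants 1 at a time against all wild-type arrays. Raised probe sets had a median of 2.80 against wild-type arrays 1 and 2 and of 2.21 against arrays 3 and 4, and lowered probe sets had -2.60 and -3.26. For the 27 named genes the smaller of both differences was at least 0.737 of the larger, and in 23 of them the pairs lay within 1 of each other. Over all tested probe sets the pairs differed by more than 1 in 2966 (22.3%), against 6 of the 38 raised and 8 of the 22 lowered ones. A call needs a small spread within wild type, so the share among called probe sets is fixed in part by the test.

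With arrays 1 and 2 as the only controls 2522 probe sets passed (18.9%), and with arrays 3 and 4 as the only controls 69 passed (0.518%), 26 of them among the 60. Fitting the pairs as separate groups gave 845 (6.34%), with all 60 among them. Fitting arrays 1 and 2 as a batch of their own gave 103 calls (0.773%), 37 of them among the 60. No mutant array is in that batch, so this fit estimates the same differences as arrays 3 and 4 alone. Arrays 1 and 2 enter it only through the estimate of spread, and it is no second check. With that batch 16 of the 27 named genes passed, and the 11 that did not were CCR2, MYC3, ARPN, AT5G05960, AT1G18660, AT1G67800, AT3G60180, AT2G35310, AT3G48185, AT5G56220 and AT3G19200, at adjusted p of 0.0514 to 0.0707. Against arrays 3 and 4 alone 11 of the 27 named genes passed: YAB3, AT4G22490, AT5G59330, AT1G55690, AT3G07720, AT1G35612, BGLU45, AT1G62290, 2A6, CHR40 and AT1G09390. SLY2, CCR2, ARPN and MYC3 did not pass there, at differences of 3.05, 3.26, 2.50 and -1.32. The double mutant arrays alone gave 14 calls (0.105%), 6 of the 27 named genes among them, and the triple mutant arrays alone 164 (1.23%) with 22 of the 27.

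**Figure D3:**
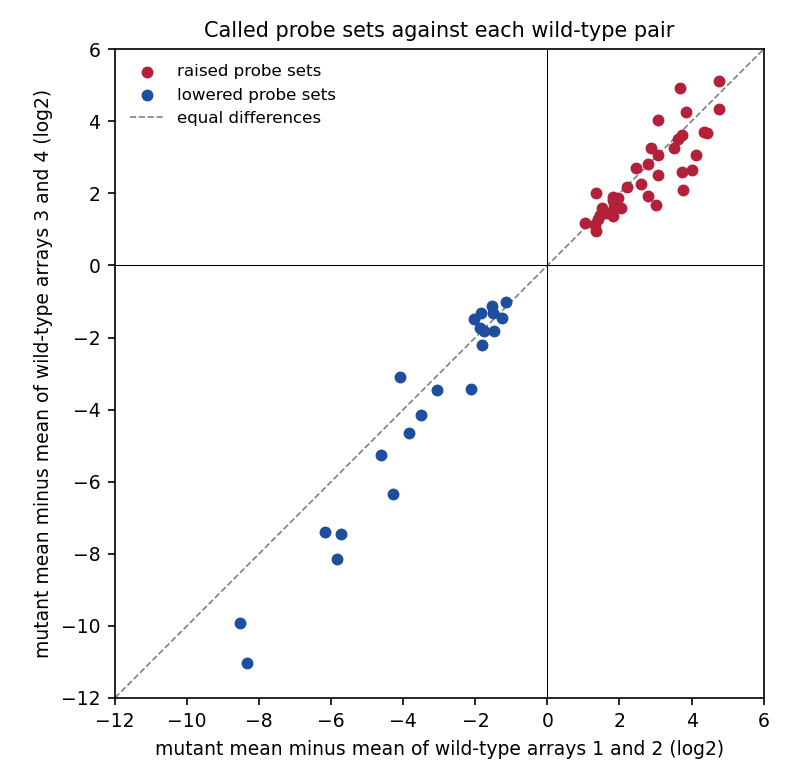
Each of the 60 called probe sets by its mutant mean minus the mean of wild-type arrays 1 and 2 (x axis) and minus the mean of arrays 3 and 4 (y axis), in log2 units. Red points are raised and blue points lowered probe sets, and the dashed line marks equal differences. Both differences of a point have the same sign, which groups without overlap require, and the medians are 2.80 and 2.21 for rises and -2.60 and -3.26 for falls.

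How alike the mutants were among themselves was examined next. In a fit of 3 groups 25 probe sets differed between triple and double mutant (0.188%), and none of the 60 was among them. A call in the pooled fit needs a small spread among the mutant arrays, so this absence is fixed in part by the test. It cannot show how alike the mutants are. The lowest adjusted p among the 27 named genes was 0.235 (AT1G62290, 1.12 ± 0.25), so none of them passed. The double and triple mutant means differed by more than 1 in 13 of the 38 raised and 2 of the 22 lowered probe sets, against 908 of all tested (6.82%). Of the raised probe sets 35 of 38, and 18 of the 18 named genes, had a mean farther from wild type in the triple mutant. All are read from the same 2 double and 2 triple mutant arrays, so their number is no replication. The share over all tested probe sets was not counted. Among lowered probe sets the triple mutant mean was farther from wild type in 13 of 22. The median of triple minus double was 0.56 for raised and -0.05 for lowered probe sets, and -0.03 for all tested.

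Single genes show the range. AT3G19200 was 1.31 ± 0.39 higher in the triple than in the double mutant, AT1G17830 1.22 ± 0.34, AT5G11930 1.18 ± 0.51 and ARPN 1.17 ± 0.43. SLY2 and 2A6 differed between the mutants by 0.23 ± 0.51 and 0.32 ± 0.41. The double mutant stood 2.95 and the triple mutant 3.18 above wild type for SLY2, and 3.40 and 3.72 for 2A6, comparisons that share the wild-type arrays. AT5G59330, at -6.80 and -6.77, and AT1G55690, at -2.01 in both, had nearly equal differences in the mutants. YAB3 was 0.78 ± 0.63 and MYC3 0.43 ± 0.26 higher in the triple mutant. None of these differences between the mutants passed.

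**Figure D4:**
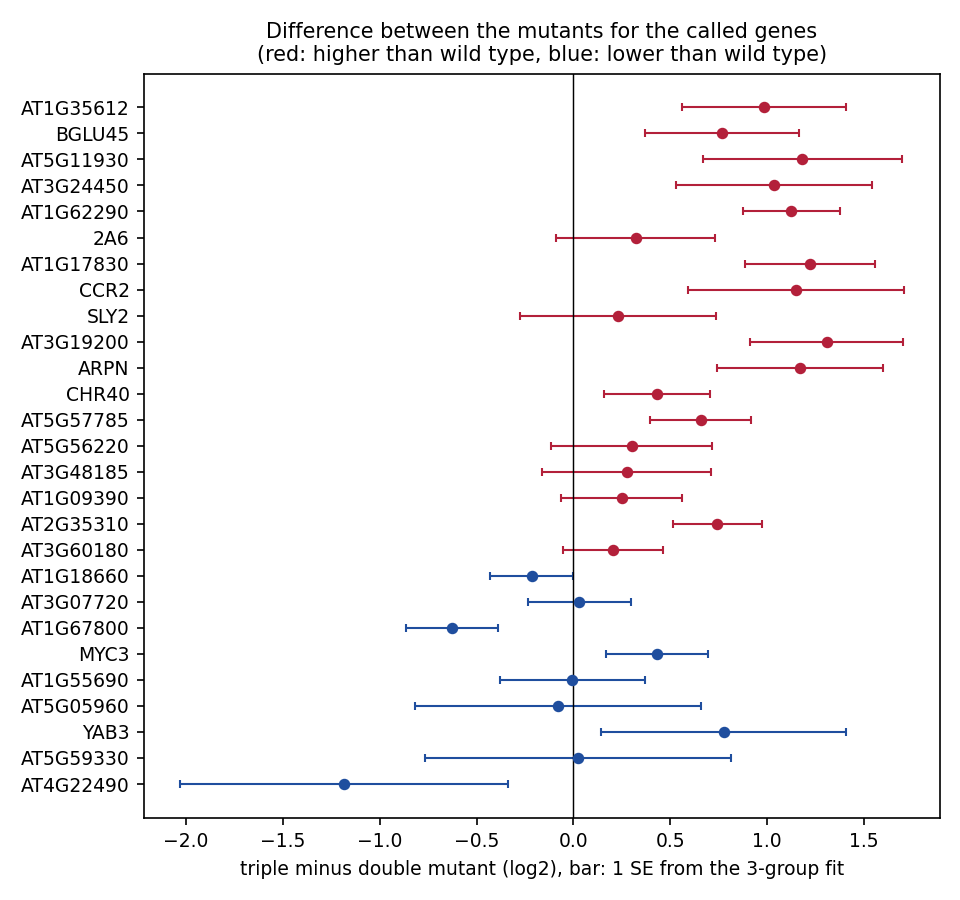
Triple minus double mutant mean (x axis, log2 units) for the 27 named genes called in the pooled comparison, with 1 SE from the 3-group fit as the bar. Genes higher than wild type are red and genes lower than wild type blue. All 18 red points lie above 0, up to 1.31, and the blue points lie on both sides; no difference passed.

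Other genes of leaf development and hormone pathways were described through 29 lists, of whose genes 54 were tested and 4 called (YAB3, SLY2, BGLU45 and CCR2), beside 0.381% of all named genes tested. The lists were chosen with earlier results of these data known. Of 5 gibberellin genes 1 rose, and their median difference was 0.98. Of 3 monolignol genes 2 rose, and BGLU46 did not pass. BGLU45, CCR2 and SLY2 were dim on all wild-type arrays and passed the filter only through the mutant arrays, so these counts say nothing for the lists. The median over all tested probe sets was -0.005, and the only other list with a member past the threshold was the YABBY list, through YAB3.

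Of 4 auxin genes none passed. WES1 (GH3.5), which conjugates auxin to amino acids, lay at 9.43 to 10.63 in wild type and at 11.44 to 12.90 in the mutants, a difference of 2.25 ± 0.38 (adjusted p 0.0555). YUC4, an enzyme of auxin synthesis, differed by 1.98 ± 0.60, from 3.04 to 5.88 in wild type to 6.26 to 7.40 in the mutants. Both had groups without overlap, with the mutants higher, as had 5.64% of the named genes tested, whereas GH3.3 and YUC2, of the same families, differed by -1.34 and -1.10. YUC4 differed by 3.04 against wild-type arrays 1 and 2 and by 0.92 against arrays 3 and 4.

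No tested gene of the leaf blade and polarity lists passed. The 5 lamina and margin genes differed between -1.85 and 0.61, with a median of 0.09. NGA2, a factor of margin growth, differed by -1.85 in the pool, but by -3.33 against arrays 1 and 2 and by -0.36 against arrays 3 and 4. NGA3 differed by -0.73 in the pool and by similar amounts against both pairs (-0.74 and -0.71). The adaxial genes PHV and AGO7 differed by 0.23 and 0.35, and the abaxial, KNOX and CIN-type TCP lists had no gene that could be tested.

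Lists of chloroplast, stomatal and trichome genes had no member past the threshold and medians below 0. The 7 nuclear photosynthesis genes had a median of -0.23, which was -0.52 against arrays 1 and 2 and 0.06 against arrays 3 and 4. The 4 chlororespiratory reduction genes, needed for the plastid NADH dehydrogenase-like complex, had a median of -0.80 (-1.46 and -0.45 against the pairs). In this list CRR21 (-1.32) and CRR28 (-1.07) had groups without overlap, with the mutants lower, as had 4.12% of the named genes tested. The 3 stomatal genes SPCH, FMA and MUTE differed by -0.59, -0.48 and -0.50 in the pool, but MUTE by 0.27 in the double and by -1.27 in the triple mutant. The 3 trichome genes had a median of -0.77. GIS differed by 1.67 in the double and by -0.41 in the triple mutant, and TRY differed by -2.33 and -0.06 against the pairs. The median moved towards 0 with wild-type arrays 3 and 4 in all 4 of these lists.

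In the flavonoid list DFR, UF3GT and AT5MAT, which act in anthocyanin synthesis, differed by 0.49, 0.77 and 0.80 in the pool and by -0.08, 0.05 and -0.01 against arrays 3 and 4. The 3 cold and drought genes had a median of -0.61, and COR15A and COR15B differed by 0.72 and -0.61. The mutants differed from each other in both, with COR15A at -0.42 (double) and 1.85 (triple) and COR15B at -1.24 and 0.03. COR15B thus hardly differed from wild type in the triple mutant, and the wild-type arrays of COR15A ranged from 2.18 to 6.58. Neither difference between the mutants passed. The 3 alpha-expansins had a median of 0.51 that was 1.15 against arrays 1 and 2 and -0.14 against arrays 3 and 4. Against arrays 3 and 4 the flavonoid and cold medians also changed sign, to -0.01 and 0.11. Single tested members of further lists also did not pass, and brackets give their differences against arrays 1 and 2, then arrays 3 and 4. ARR15, a cytokinin response regulator, differed by -0.74 (-1.80 and 0.31), and the clock gene GI by -1.0 (-1.95 and -0.05). The flowering gene AGL24 differed by 0.23 (0.93 and -0.48) and the ethylene factor EIN3 by 0.12 (-0.28 and 0.51). The glucosinolate gene AOP3 differed by -0.18 (0.46 and -0.82). STZ, a zinc finger gene induced by handling and stress, differed by 1.48 (2.43 and 0.54).

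Gene families matched by their names gave 88 tested genes, none of them called by limma. Matching by name missed genes: the lipid-transfer protein and 2-oxoglutarate dioxygenase families held no gene with a named probe set. The called genes AT4G22490, AT5G59330 and 2A6 are therefore not among the 88. The 18 UDP-glycosyltransferases had a median of 0.11 and a range of -1.03 to 0.77. The 14 bZIP factors had a median of 0.21, and bZIP58 (3.21 ± 0.67), bZIP52 (1.37 ± 0.32) and BZIP60 (0.59 ± 0.17) were higher and AT2G21230 (-0.60) lower without overlap, as were 9.76% of all named genes tested in either direction. BZIP60 is a factor of the unfolded protein response. The difference of bZIP58 was 4.40 against arrays 1 and 2 and 2.02 against arrays 3 and 4. The 8 expansins, proteins that loosen cell walls, had a median of 0.58, with EXLA2 (1.34 ± 0.39) higher without overlap. The 6 bHLH factors had a median of 0.10, the 6 MADS-box factors -0.20, the 6 cytochrome P450 genes -0.03, the 5 glutathione S-transferases -0.03, the 3 jacalin lectins 0.75 and the 3 histone genes -0.62. MYC3 does not carry its family's word in its names and is not among these 6 bHLH factors.

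**Figure D5:**
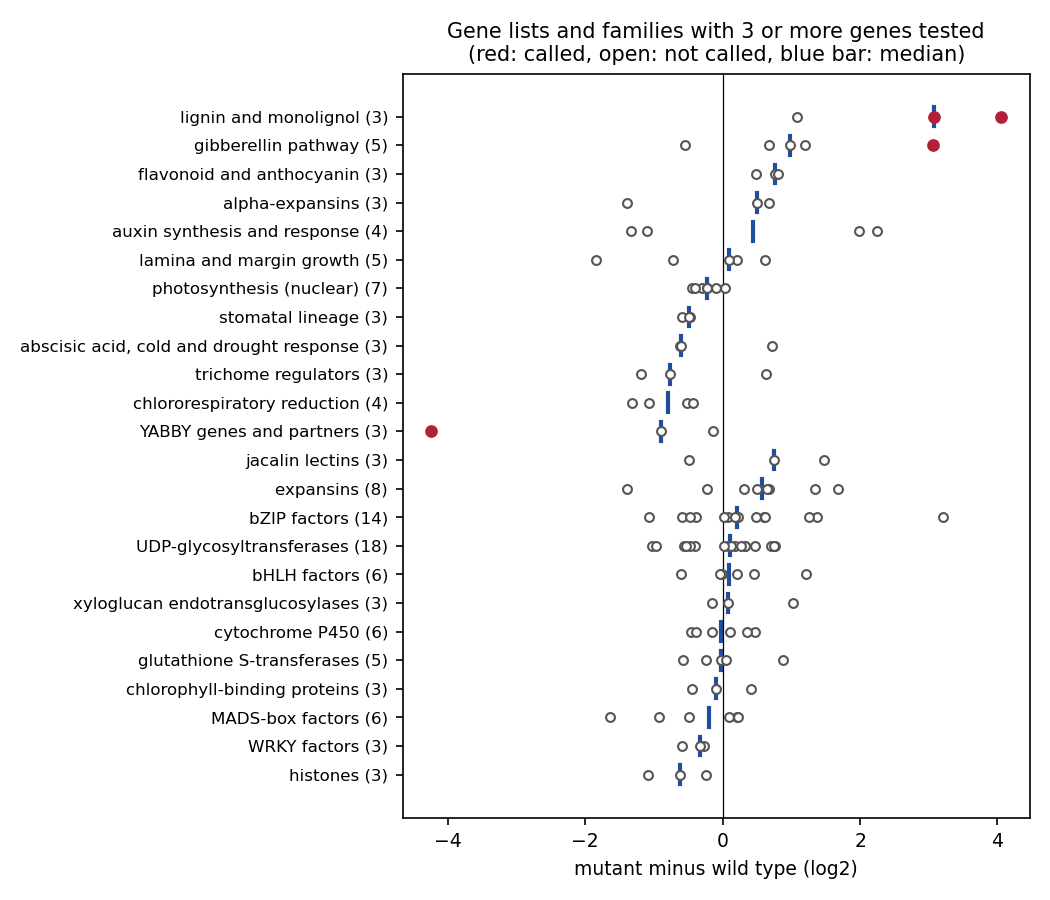
Mutant minus wild type (x axis, log2 units) for each tested gene of the lists and families with 3 or more genes tested, with the number in brackets. Red points passed the threshold, open points did not, and blue bars are medians. Only the monolignol, gibberellin and YABBY lists hold red points, and the open points of most rows lie on both sides of 0.

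Groups that do not overlap reach further than the calls. Of the 7090 named genes 692 (9.76%) had mutant arrays all above or all below wild type, 400 higher (5.64%) and 292 lower (4.12%), and 665 of them were not called. The median size of their differences was 0.719. The 20 with the widest gaps among those with a gene symbol were picked after their values were seen and are given as values only.

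On the lower side the widest gap belonged to iqd21, an IQ-domain protein of the kind that binds calmodulin. It lay at 9.22 to 10.42 in wild type and at 8.46, 8.39, 6.53 and 7.60 in the mutants (difference -2.07, adjusted p 0.112). The difference of iqd21 was -2.52 against wild-type arrays 1 and 2 and -1.62 against arrays 3 and 4. Brackets below give the same pair values in this order. PMEAMT, a methyltransferase of choline lipid synthesis, differed by -1.68 (-2.25 and -1.11), with mutant arrays between 9.15 and 9.36. CFM3A, a splicing factor of chloroplast introns, differed by -0.97 (-0.72 and -1.22), and EMS1, a receptor kinase known from anthers, by -1.12 (-1.16 and -1.08). TRXF2, a chloroplast thioredoxin, differed by -0.94 (-1.29 and -0.59). EX1, of chloroplast singlet oxygen signalling, differed by -0.89 (-1.23 and -0.55), and VTC4, an enzyme of ascorbate synthesis, by -0.85 (-1.08 and -0.62). PEL1 differed by -0.75 (-0.69 and -0.80) and the glutathione reductase gene GR by -0.57 (-0.55 and -0.59). FTSZ2-1, of plastid division, differed by -0.56 (-0.60 and -0.52). None of these 10 passed the threshold.

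On the higher side WES1 and bZIP58 led, followed by SBT1.3, a subtilisin-like protease that was bright at 11.31 to 11.45 in wild type and at 12.04 to 12.71 in the mutants (0.89 ± 0.19). GTR2, a glucosinolate transporter, was higher by 1.35 ± 0.28, and scpl35, a serine carboxypeptidase-like gene, by 1.96 ± 0.46. GH3.17, a further enzyme that conjugates auxin, lay at 8.07 to 9.77 in wild type and 10.25 to 11.28 in the mutants (2.17 ± 0.40, adjusted p 0.0686). ATSBT5.2, also a subtilase, was higher by 2.53 ± 0.57. SPT (SPATULA), a bHLH factor of carpel and leaf growth, lay at 4.53 to 6.34 in wild type and at 6.71 to 8.06 in the mutants (1.64 ± 0.43, adjusted p 0.145). Each of these genes had the same direction on all 4 mutant arrays, which their choice by groups without overlap fixes, and none passed.

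The raised and lowered named genes were spread over the chromosomes. Shares are of the named genes tested that the gene table places on chromosomes 1 to 5. Chromosome 1 (26.3%) had 7 raised and 3 lowered genes, chromosome 2 (14.3%) had 2 and 0, and chromosome 3 (21.0%) had 5 and 1. Chromosome 4 (14.4%) had 0 and 2, and chromosome 5 (24.1%) had 3 and 3. The raised gene AT5G57785 is not in the gene table and is left out of these counts. Genes with groups that did not overlap made up 5.17% to 6.13% (higher) and 3.68% to 4.43% (lower) of the tested genes of each chromosome. No called named gene had another called gene within 10 genes on its chromosome. The nearest with a large difference was AT1G35617, 2 genes from AT1G35612, at 2.04 with an adjusted p of 0.150 and groups without overlap.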

How the data were processed

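RNA of shoot apices was measured on 8 one-colour Affymetrix arrays. Per the submitters' processing notes the deposited log2 values came from GCRMA, run in R 2.7.2. That method sets arrays to like distributions by quantiles, so the close array medians (5.74 to 5.88) follow from it. No source used here gives its settings. The number of arrays limits the precision. The table holds 22810 rows; 64 control probe sets were set aside, and 13323 of 22746 probe sets exceeded 4 on 4 or more arrays. Groups came from the titles.

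The 4 mutant and 4 wild-type arrays were compared with limma 3.58.1 in R 4.3.3 (lmFit, eBayes, two-sided, 6 residual degrees of freedom), adjusted by Benjamini-Hochberg over all 13323 probe sets at 0.05. The fit was tested on simulated data. Double and triple mutants were compared in a 3-group fit. A group at or below 4 on all arrays gives a bound, the other group's mean against the level of 4. Names came from a platform annotation and the TAIR10.1 gene table, to which 7153 of 7164 single-gene probe sets matched; for genes with more than 1 probe set the brightest was taken. No sequence is printed.

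Named genes are YABBY genes and SEU, the 15 most raised and 15 most lowered called genes without overlap, the 3 called genes beyond these, and list members. The members, lists and tests were chosen with earlier results of these data known; the families and widest-gap genes were picked after values had been seen. Other filters, normalizations, weights, groupings, control pairs and left-out arrays were tried. Titles give replicate numbers to all groups, but the numbers do not pair the arrays (correlations of their deviations -0.10 to -0.01). Figures were drawn with matplotlib 3.10.9.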

Additional observations from a re-analysis of the deposited data

Results flagged for a closer look

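Among the 96 genes named, each group of 4 arrays was searched for an array far from the other 3 (192 groups, of which chance marks about 1 in 20), and 13 such values were found. Among the genes described above these were ARPN on wild-type array 1 (5.94, other wild-type arrays 6.88 to 7.07), AT4G22490 on double mutant array 2 (4.52, other mutant arrays at 2.16), CFM3A on triple mutant array 2 (7.00, below the other mutant arrays), and GTR2 on wild-type array 2 (7.93, the lowest of its group). AGO7 was marked on wild-type array 4 (4.75) by a very small distance, as the other wild-type arrays lay at 4.78 to 4.79. AT5MAT (6.67) and UF3GT (9.55) stood apart on the same array. COR15B (4.25) and EXLB1 (3.65) stood apart on wild-type array 3, and CYP71B6 on wild-type array 1 (9.50). In the mutants UF3GT stood apart on triple mutant array 1 (5.79), CYP71B35 on double mutant array 1 (3.95) and IAA30 on double mutant array 2 (4.27). No explanation was tested.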

How the results depend on the processing

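The number of calls depended on how the wild-type arrays entered the fit. Calls, with raised and lowered after them, were 60 (38 and 22) in the comparison reported, and 15 (7 and 8) with no filter on dim probe sets, 148 (93 and 55) with 3 groups, 315 (187 and 128) with array weights, 14 (10 and 4; 0.105%) with the double and 164 (93 and 71; 1.23%) with the triple mutant arrays only. They were 2522 (1265 and 1257) against wild-type arrays 1 and 2 only, 69 (35 and 34) against arrays 3 and 4 only, 845 (460 and 385) with the pairs as separate groups and 103 (64 and 39) with a batch block. Filters of 4 on 2 arrays and of 6, both scalings, robust estimation and leaving out probe sets of uncertain target gave 51 to 59 calls. A replicate block gave 1679 (821 and 858), although the numbers do not pair the arrays, and leaves wild-type arrays 3 and 4 without a mutant partner. Without 1 array the calls ranged from 12 to 123 (raised 4 to 79, lowered 4 to 44), lowest without wild-type array 1 or triple mutant array 1 and highest without wild-type array 3. With the full 8-array set of probe sets kept, a check added after seeing the data, they ranged from 23 to 137 (13 to 82 and 10 to 55). For single genes 2635 values kept their side of the threshold, 279 lost it and 106 gained it. None of the called named genes changed sign, which groups without overlap fix. Genes that were not called could change sign, as YAB5 did (-0.90 in the pool, 0.07 against wild-type arrays 3 and 4). The causes of these changes were not tested. Signals at or below 4 limit what can be measured: 11 of the 38 raised and 6 of the 22 lowered probe sets have a dim group.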
